A study of Mus musculus with 30 samples.

Results

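The genes described here are 10 marker genes of mouse embryonic stem cells other than the core pluripotency factors: Zfp42, Dppa2, Dppa3, Dppa4, Dppa5a, Tdgf1, Lin28a, Sall4, Utf1 and Tcl1. They were taken by name, all 10 were found among the 20558 protein-coding genes placed on chromosomes 1 to 19, and they lie on 8 chromosomes. Each was set against the initiation zones of DNA replication mapped in the series, which asked how parental and new histones are divided between sister chromatids. The only sample analysed here, of 30, was a wild-type OK-seq library of E14TG2a, a mouse embryonic stem cell line kept undifferentiated with LIF and inhibitors of MEK and GSK3. Its cells were labelled with 10 µM EdU, a thymidine analogue, for 2 min. The MCM2-2A mutant clones and the other wild-type samples were not analysed here, so no groups were compared and no error between replicates can be given. OK-seq reads the strand of Okazaki fragments, the short pieces of the lagging strand, and so shows which way forks travel. The deposited list gave 2844 zones (mm10). Each has a breakpoint, a bin of 1 kb, and a left and a right arm of up to 100 kb that end at its edges. The list holds no read counts, so the depth is unknown, and it holds no transcript levels, so the markers' expression in these cells was not measured.

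Replication starts within broad initiation zones, from which forks move apart to the left and to the right. In many cell types such zones lie beside active genes, and the direction in which a fork crosses a gene sets whether it meets RNA polymerase head-on or from behind. The 10 markers have been used to recognise or maintain undifferentiated cells. Zfp42 (also Rex1) and Sall4 encode zinc finger proteins, Tdgf1 (Cripto) a co-receptor of Nodal, and Tcl1 a co-activator of the kinase Akt. Dppa2, Dppa4, Dppa3 (Stella) and Utf1 encode proteins that act on chromatin or DNA methylation, and Lin28a and Dppa5a encode RNA-binding proteins.

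RefSeq promoter sequences (GRCm38.p6, the same build as mm10) matched 5 of the 10 genes. The promoters of Zfp42 and Tdgf1 are shown because their start sites lie beside a breakpoint, and that of Utf1 because its start site is the farthest from one among the 5. Each run is the 250 bases before the start site, read 5′ to 3′ on the strand of the gene. Capitals mark any match to the octamer ATTTGCAT, bound by POU factors such as Oct4, to the GC box GGGCGG, to CCAAT or to TATAAA, on either strand. Zfp42 is at chr8:43307010-43307259 (minus strand), Tdgf1 at chr9:110946159-110946408 (minus strand) and Utf1 at chr7:139943606-139943855 (plus strand).
Zfp42: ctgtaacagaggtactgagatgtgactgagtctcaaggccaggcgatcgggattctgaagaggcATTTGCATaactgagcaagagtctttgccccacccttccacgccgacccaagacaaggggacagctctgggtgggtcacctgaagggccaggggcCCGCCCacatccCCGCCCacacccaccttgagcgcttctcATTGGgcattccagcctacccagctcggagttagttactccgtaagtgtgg
Tdgf1: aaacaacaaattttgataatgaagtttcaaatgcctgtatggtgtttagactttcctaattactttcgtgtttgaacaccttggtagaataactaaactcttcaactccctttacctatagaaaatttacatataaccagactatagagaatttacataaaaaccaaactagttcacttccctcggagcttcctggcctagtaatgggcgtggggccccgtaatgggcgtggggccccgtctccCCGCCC
Utf1: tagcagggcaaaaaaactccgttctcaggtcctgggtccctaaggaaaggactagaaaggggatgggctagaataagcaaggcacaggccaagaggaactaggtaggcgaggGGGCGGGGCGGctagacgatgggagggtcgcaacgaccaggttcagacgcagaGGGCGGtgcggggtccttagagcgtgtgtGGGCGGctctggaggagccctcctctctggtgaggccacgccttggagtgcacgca

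The Zfp42 promoter held the octamer, beginning 186 bases before the start site, with a GC box at 91 and another at 79 bases and a CCAAT box at 51 bases. An octamer was present in 1.59% of the 20085 promoters of protein-coding genes in the same window, a GC box in 43.4%, CCAAT in 35.3% and TATAAA in 11.7%. The Tdgf1 promoter held 1 GC box, 6 bases before the start site, and the Utf1 promoter held 4, of which those at 138 and 133 bases overlap. Tcl1 had 2 GC boxes, and in Lin28a none of these letters occurred in the window. GC content was 58.4% in Zfp42, 42.0% in Tdgf1, 61.2% in Lin28a, 61.6% in Utf1 and 57.6% in Tcl1, against a median of 56.0% in all promoters. Tdgf1 was thus the one of the 5 below the median. These matches are descriptions of letters in the window and not of bound sites.

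Of the 10 markers, 2 lay inside an initiation zone and 8 lay outside every zone. Zfp42 and Tdgf1 were the pair inside (2 of 10), while the share with an end in a zone was 32.4% over all protein-coding genes. Both also had the breakpoint bin within the gene body (2 of 10), which applied to 4.20% of all protein-coding genes. No other marker had an end less than 20 kb from a zone (2 of 10), against 38.5% of all genes, and at 50 kb Dppa3 and Lin28a joined them (4 of 10, against 45.4%). Among the genes of the markers' own length range, 1.15 to 18.9 kb, the share with an end in a zone was 30.8%, and 2.85% held a breakpoint bin in the body. With the zones of median width or more alone, the markers' count was again 2 of 10, against 20.1% of all genes with an end in a zone and 23.4% within 20 kb, so that it then stood near the share of all genes. With gene midpoints in the full list the count inside was also 2 of 10, near the 22.5% of all genes. By start sites, known for 5 markers, 2 of 5 lay in a zone, against 28.0% of all genes with an entry. The markers without a known start site all lay outside zones, so this count leaves out only genes of the outside group. No test was made, since 10 chosen genes of 1 library give none, and the counts describe these genes alone.

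In order of distance from a zone edge, the 8 outside were Dppa3 (36.7 kb), Lin28a (49.8 kb), Tcl1 (66.8 kb), Dppa2 (71.5 kb), Dppa4 (96.7 kb), Utf1 (107.9 kb), Dppa5a (108.8 kb) and Sall4 (554.3 kb). Utf1 and Dppa5a differed by less than the bin of 1 kb, so their order is not resolved. The order of the others exceeds the bin, but how far edges would shift in a second library is not known. The median of the 10 genes was 69.1 kb, and that of all protein-coding genes 71.2 kb, although the genes fell into a pair at a breakpoint and 8 at distances of 36.7 kb or more. Sall4 was farther from a zone than 90.9% of all genes. For the other 7 genes outside, between 42.5% and 57.5% of all genes lay closer. Of the 8, 6 lay left of the nearest breakpoint and 2, Tcl1 and Sall4, right of it. Dppa2 and Dppa4, both on the left, share a zone, so the 8 genes have 7 nearest zones.

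**Figure D1:**
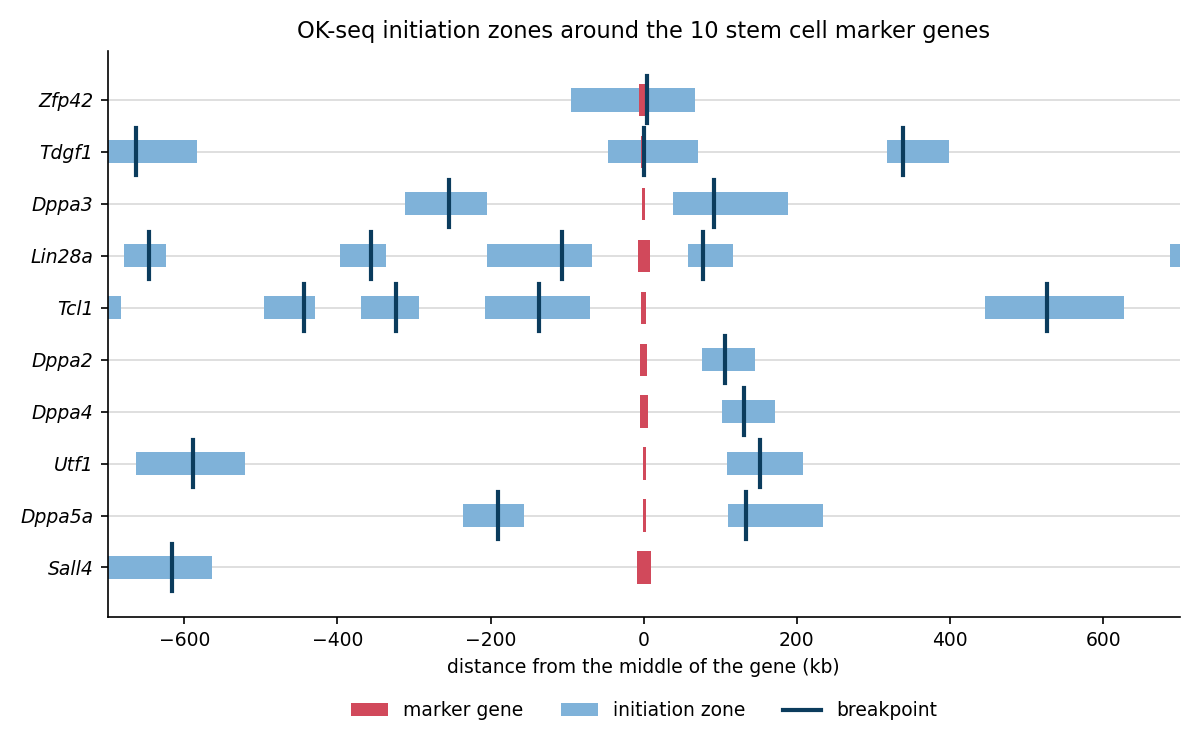
Zones (blue bars) and breakpoints (dark lines) within 700 kb of the middle of each marker gene (red), on a horizontal axis of distance in kb, for the wild-type OK-seq library. Zfp42 and Tdgf1 hold a breakpoint in the gene body. Measured from the nearer gene end rather than the middle, 7 others have a zone within 109 kb, and Sall4 has its nearest zone at 554.3 kb.

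Of the zinc finger genes, Zfp42 held a breakpoint and Sall4 was the farthest of the set from a zone. Zfp42 (chromosome 8, 43295067 to 43307009, minus strand), a marker of the naive state, held the breakpoint bin at 43305001 to 43306000 close to its start. Its start site was 1.51 kb to the right of the middle of that bin and its other end 10.4 kb to the left, so transcription runs leftward through the bin and then along the left arm. Of the 16457 protein-coding genes with a promoter entry, 0.741% had a start site nearer to a breakpoint, and the median was 148.3 kb. The zone of Zfp42, from 43206001 to 43368000, was 161 kb wide, and 91.4% of zones were no wider. Its left arm was 99 kb, 1 kb short of the limit, and its right arm 62 kb. Zfp42 was the only annotated gene of any kind with an end in this zone, and gene bodies covered 7.37% of it. The next genes were Triml2 and Triml1, 101.2 and 114.6 kb to the left, and Adam26b, a metallopeptidase gene, 212.9 kb to the right. The zone stood alone, with the next breakpoints 2333 kb to the left and 1622 kb to the right, and 97.0% of breakpoints had a closer neighbour.

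Sall4 (chromosome 2, 168748332 to 168767201), needed for early embryonic cells, lay 554.3 kb right of its nearest zone and 1345 kb left of the next. The interval without a zone was 1918 kb long, and 92.7% of the 2737 intervals between neighbouring zones were shorter, with a median of 508 kb. Its immediate neighbour was Atp9a, a phospholipid flippase gene, 5.96 kb to the left, followed by Nfatc2, a transcription factor gene, and the potassium channel gene Kcng1. These are the nearest of 5 protein-coding genes that lie wholly between Sall4 and the zone. That zone (168050001 to 168194000) was 143 kb wide, and it held an end of Adnp, a homeodomain gene, of the polarity gene Pard6b and of Ripor3. Its breakpoint lay in none of these 3, whose nearer ends were 39.5, 40.3 and 90.6 kb away.

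Of the signalling genes, Tdgf1 lay on a breakpoint and Tcl1 beyond the edge of a zone that its gene family reaches. Tdgf1 (chromosome 9, 110939608 to 110946158, minus strand) enclosed the breakpoint bin at 110943001 to 110944000, with its start site 2.66 kb to the right and its other end 3.89 kb to the left. A start site nearer to a breakpoint was found in 1.28% of genes with a promoter entry. As in Zfp42, transcription enters the bin from the right and leaves it to the left. The zone ran from 110896001 to 111014000, and at 117 kb it was near the median of 112 kb. In contrast to Zfp42, Tdgf1 shared its zone with 4 other protein-coding genes, and gene bodies covered 43.6% of it. Lrrc2 began 8.04 kb right of the breakpoint on the plus strand, so that it and Tdgf1 point away from each other across 5.39 kb. Fam240a lay 26.6 kb to the left and Rtp3, of the receptor transporter family, 41.4 kb to the right, both on the minus strand, and Als2cl reached into the left arm with an end at 43.0 kb. The next breakpoints were 664 kb to the left and 338 kb to the right.

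Tcl1 (chromosome 12, 105216753 to 105222737, minus strand) lay 66.8 kb right of the edge of its nearest zone, behind a row of 5 relatives on the plus strand. The row began inside the zone with Tcl1b2, which reached over its right edge. Tcl1b1 followed at 9.70 kb from the edge, Tcl1b5 at 26.3 kb, Tcl1b3 at 41.0 kb and Tcl1b4 at 52.4 kb, so that Tcl1 was the last and farthest of the 6. These relatives resemble each other, and the treatment of reads that match several places is not given in the sources. The zone (105013001 to 105150000) was 136 kb wide with arms of 69 and 67 kb, the most even of the 9 zones described. Besides Tcl1b2 it held 1 protein-coding gene, the glutaredoxin gene Glrx5, on its left arm at 41.6 kb, while 10 genes of all kinds had an end inside. The breakpoint bin fell in the lncRNA gene Gm31829. On its other side Tcl1 had 443.3 kb to the next zone.

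**Figure D2:**
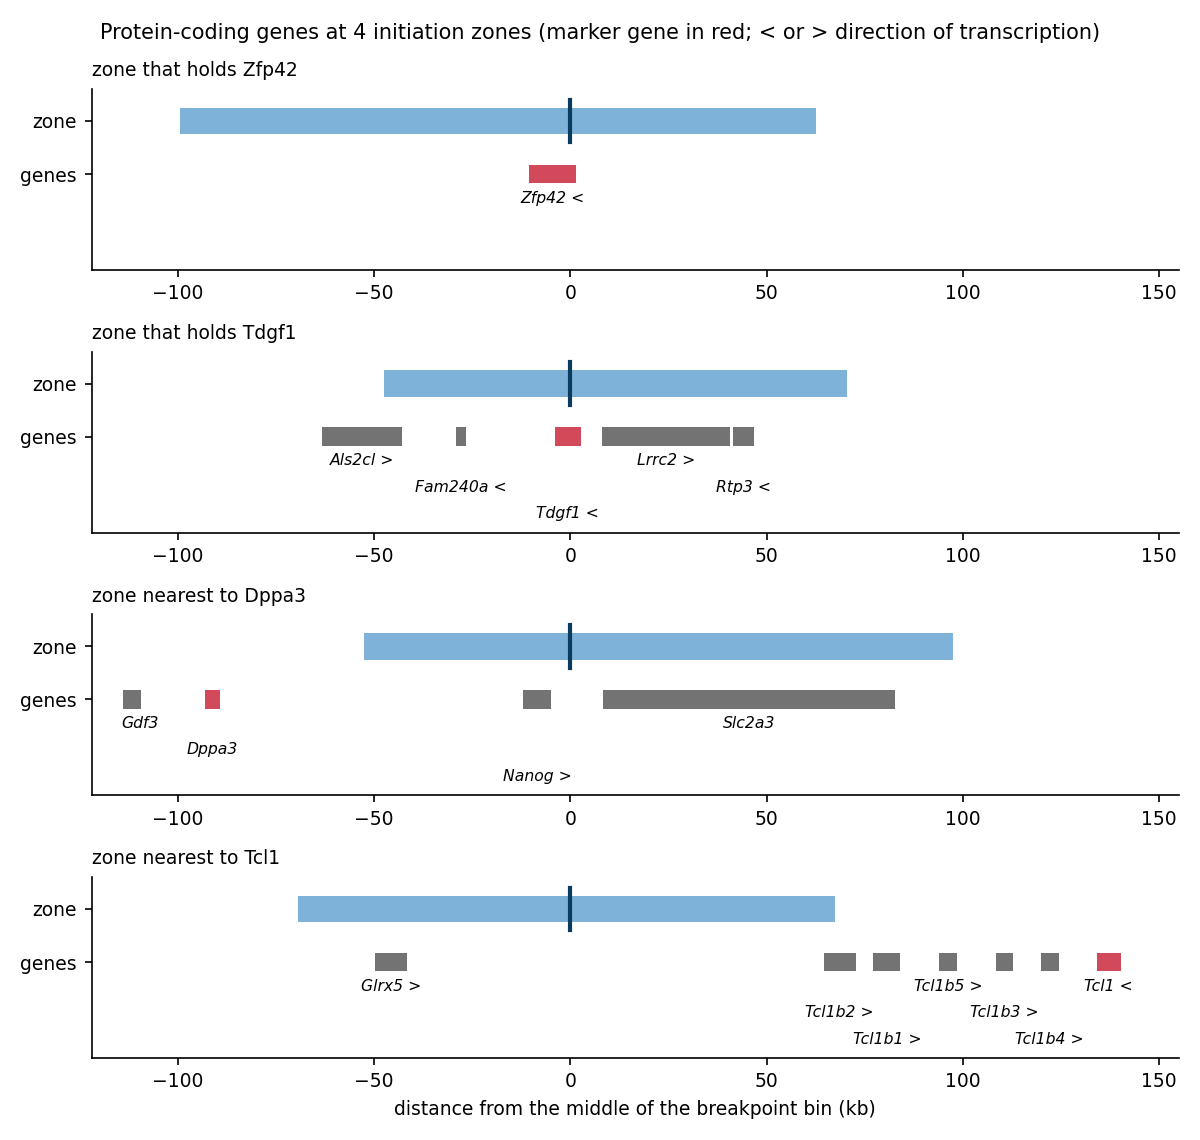
Protein-coding genes with an end in the zones of Zfp42, Tdgf1, Dppa3 and Tcl1, with Gdf3 and the Tcl1b genes added, by distance in kb from the middle of the breakpoint bin (dark line). Blue bars are zones, the marker gene is red, and < or > gives the direction of transcription where the promoter table holds it. Zfp42 is alone at its breakpoint, Tdgf1 is flanked by 4 genes, and Dppa3 and Tcl1 lie 36.7 and 66.8 kb outside the edge.

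None of the 4 chromatin genes, at 3 locations, lay inside a zone, which is too few genes to set against the 32.4% of all genes. Dppa4 and Dppa2, whose products act together on chromatin of early embryonic genes, are neighbours on chromosome 16 (48283735 to 48294292 and 48310274 to 48319513) with 16.0 kb between them, and they share their nearest zone. They are thus 1 location and not 2 independent ones. Dppa2, the closer, lay 71.5 kb and Dppa4 96.7 kb left of the zone from 48391001 to 48460000. At 68 kb this zone was narrow, with 14.0% of zones no wider. It held an end of a single protein-coding gene, Morc1, which silences transposons in male germ cells and reaches 210.4 kb to the right of the breakpoint. The lncRNA gene Gm5485 lay on the left arm. No protein-coding gene other than the pair itself separated them from the zone. To the left there was no zone for 1719 kb from Dppa2 and 1693 kb from Dppa4, and 90.9% of intervals between zones were shorter than the 1800 kb in which the pair lies.

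Dppa3 (chromosome 6, 122626424 to 122630271), which guards DNA methylation of the maternal genome in the zygote, was the nearest to a zone of the 8 outside, at 36.7 kb. Its nearest zone, from 122667001 to 122817000, holds the core factor gene Nanog. Nanog, on the plus strand, ended 4.87 kb left of the breakpoint, and Slc2a3, which encodes the glucose transporter GLUT3, had its nearer end 8.31 kb right of it. Gdf3, a ligand gene of the TGF-beta family also used as a stem cell marker, lay beyond Dppa3 at 56.9 kb from the edge, and no protein-coding gene lay between Dppa3 and the zone. Along this neighbourhood the markers were thus arranged with Nanog inside, Dppa3 outside and Gdf3 farther out. The zone was 149 kb wide, with a left arm of 52 kb and a right arm of 97 kb, so the longer arm points away from Dppa3. To the left the next zone edge was 202.4 kb away, and 27.1% of intervals were shorter than this one of 243 kb.

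Utf1 (chromosome 7, 139943856 to 139945112, plus strand), 1.26 kb long and linked to chromatin of undifferentiated cells, lay 107.9 kb left of the zone from 140053001 to 140152000. In between were 5 protein-coding genes, of which Spef1l, the metallopeptidase gene Adam8 and the gamma-tubulin complex gene Tubgcp2 were nearest to Utf1. The zone, 98 kb wide, held an end of 7 protein-coding genes, the most of the 9 zones and a number that 5.52% of zones reach or pass. Gene bodies covered 67.3% of it. Its breakpoint bin fell in Prap1. To the right followed Fuom, a fucose mutarotase gene, at 1.31 kb, the fatty acid oxidation gene Echs1 at 9.21 kb, the polyamine oxidase gene Paox at 19.2 kb, Mtg1 at 41.1 kb and Sprn at 54.1 kb. Caly lay to the left at 13.9 kb.

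The genes of RNA-binding proteins were 49.8 kb (Lin28a) and 108.8 kb (Dppa5a) from a zone. Lin28a (chromosome 4, 134003330 to 134019196, minus strand), which blocks maturation of let-7 miRNAs, lay between zones 59.3 kb to its left and 49.8 kb to its right. The interval of 125 kb was the shortest among the markers, and 12.4% of all intervals were shorter. The nearer zone, from 134069001 to 134128000, was the narrowest of the 9 at 58 kb, and 3.59% of zones were no wider. Its breakpoint bin lay in Crybg2, and Cd52, which encodes a surface glycoprotein of lymphocytes, Ubxn11 and Sh3bgrl3 followed to the right at 5.04, 14.0 and 38.9 kb, so gene bodies covered 84.6% of it. No protein-coding gene lay wholly between Lin28a and this zone, but Crybg2 reached over the zone's left edge towards Lin28a. Its relative Lin28b on chromosome 10 was 285.6 kb from a zone.

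Dppa5a (chromosome 9, 78367052 to 78368199), the shortest of the 10 at 1.15 kb, had zones 156.1 kb to its left and 108.8 kb to its right, in an interval of 266 kb, with 29.7% of intervals shorter. Ooep, expressed in oocytes, the helicase gene Ddx43 and Cgas, which encodes the sensor of cytosolic DNA, were the nearest of 4 genes between it and the right-hand zone. That zone, from 78477001 to 78602000, was the most uneven of the 9, with a left arm of 24 kb and a right arm of 100 kb, the limit. Eef1a1, which encodes a translation elongation factor, lay on the left arm 19.8 kb from the breakpoint, and Slc17a5, a lysosomal transporter gene, on the right arm at 35.0 kb.

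The 9 zones that hold or lie nearest to the markers covered much of the range of the list. Their widths ran from 58 to 161 kb with a median of 124 kb, against 112 kb for all 2844 zones, and 6 were wider than that. The right arm was the longer in 6 and the left in 3, against 48.9% with the longer arm on the right in the whole list. The longer arm exceeded the shorter 1.60 times at the median, against 1.64 in all zones. Zones were even at Tcl1 (1.03 times) and uneven at Lin28a (2.05 times) and Dppa5a (4.17 times). Since 9.56% of zones reach the arm limit on some side, the width at Dppa5a may be cut short.

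**Figure D3:**
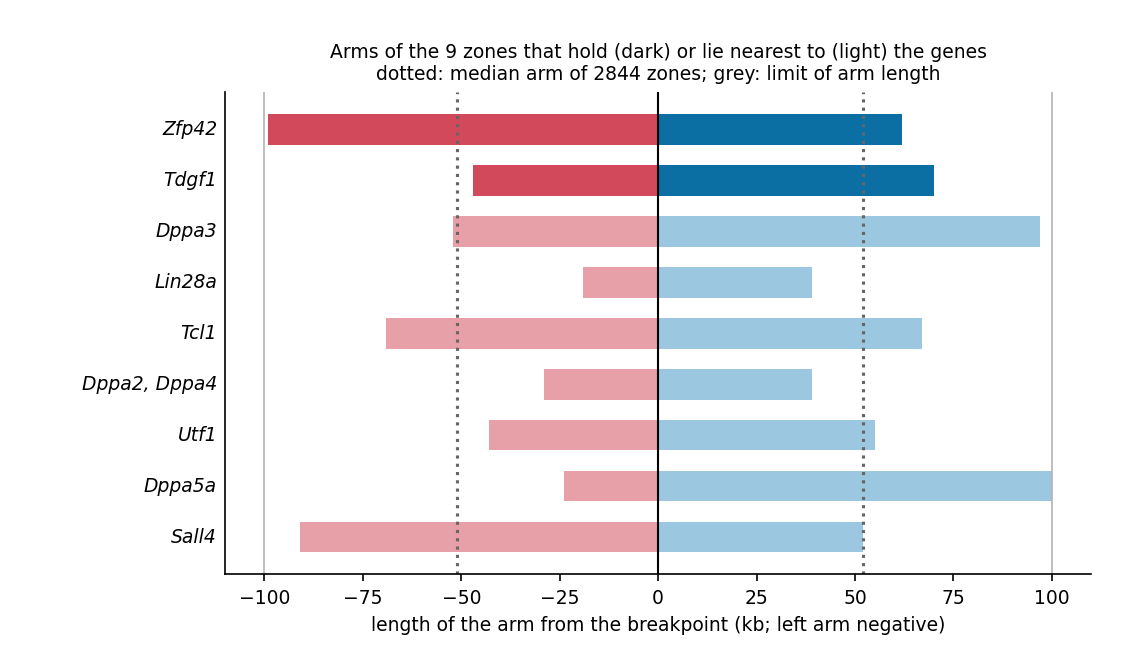
Left (negative) and right arm length in kb of the 9 zones that hold (dark) or lie nearest to (light) the marker genes, with the median arms of all zones (51 and 52 kb, dotted) and the limit of 100 kb (grey). The zone of Zfp42 has the longest left arm at 99 kb and that of Dppa5a the longest right arm at 100 kb.

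The markers differed in how crowded their surroundings were, and the pair inside zones came from both ends of that range. Within 250 kb of the gene's middle, Tdgf1 had 17 other protein-coding genes, Utf1 16, Lin28a and Dppa5a 15, Dppa3 10 and Tcl1 8. Zfp42, Dppa4 and Sall4 had 3 each and Dppa2 had 2, against a median of 9 for all genes. Of the pair inside zones, Tdgf1 had the most neighbours of the 10, and Zfp42 had so few that 11.5% of all genes had fewer. By gene ends, the sparse group contained both the gene nearest to a breakpoint, Zfp42, and the farthest, Sall4. By gene midpoints Tdgf1 was nearer (0.618 kb) than Zfp42 (4.46 kb), so the order of this pair is not settled.

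Other genes of the pluripotency network lay inside zones in larger numbers. Of 16 core and naive factor genes, 14 had an end inside a zone, beside 2 of the 10 markers and 10 of 16 further marker genes. The share over all protein-coding genes was 32.4%. Among the further marker genes inside, Lefty1 and Lefty2 on chromosome 1 have the same nearest breakpoint and so are 1 location. The median distance to a breakpoint was 113.6 kb in the markers and 14.5 kb in the core and naive factors. It was 41.3 kb in the 16 further marker genes and 129.1 kb in all protein-coding genes. Within 20 kb of a zone were 2 of the 10 markers, 15 of the 16 core and naive factors and 11 of the 16 further marker genes. Over all protein-coding genes this share was 38.5%. A breakpoint bin lay in the body of 2 of the 10 markers and 4 of the 16 core and naive factors, Fgf4, Klf5, Lifr and Esrrb. It also lay in the body of 2 of the 16 further marker genes, Nodal and Tdh, and of 4.20% of all protein-coding genes. No test was made between these lists, which were chosen with earlier results of these data known. They also differ in gene length, with medians of 7.90 kb in the markers, 14.0 kb in the core and naive factors and 14.2 kb in the further marker genes. Within 250 kb the median count of other protein-coding genes was 9 in the markers and 2.5 in the core and naive factors. It was 8 in the further marker genes.

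Among the core and naive factors, Fgf4, Klf5 and Nanog had ends nearest to a breakpoint, at 1.11, 4.81 and 4.87 kb, and Klf4, Esrrb and Sox2 were the farthest, at 196.6, 74.4 and 73.0 kb. Esrrb, the longest of them at 160.5 kb, nevertheless spans a breakpoint bin between its ends. Nodal, a ligand that signals through Tdgf1 as co-receptor, had an end 0.838 kb from a breakpoint. Like Tdgf1, it held a breakpoint bin in its body, which 14 of the 16 further marker genes did not. Whether the positions of Nodal and Tdgf1 are linked was not tested. In the further list Nodal was followed by Dnmt3l and Zscan10 at 1.79 and 2.48 kb. Zscan4c was the farthest at 3619 kb, with Lin28b and Esrp1 before it at 326.1 and 294.4 kb. Paralogues of the markers were spread likewise. Sall1 and Sall3 lay inside zones, 31.7 and 11.5 kb from the breakpoint, whereas Sall2 was 126.2 kb from an edge and Sall4 554.3 kb. Dppa1, which shares only its name stem with the other Dppa genes, had an end inside a zone, 55.5 kb from the breakpoint.

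**Figure D4:**
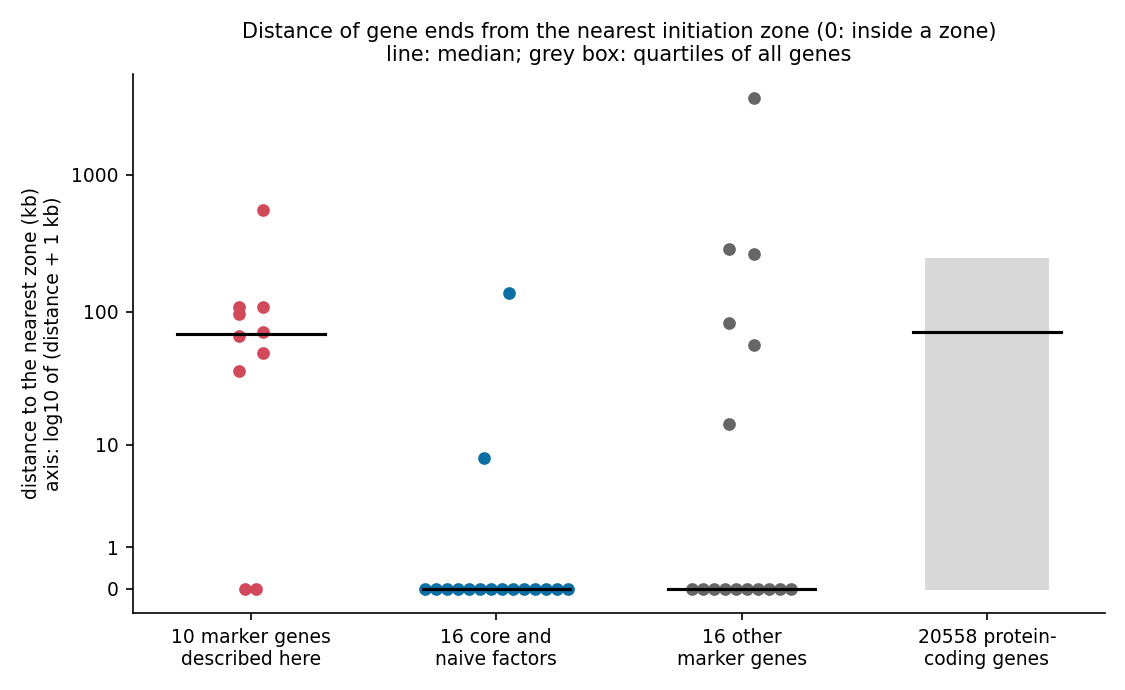
Distance in kb of the nearer gene end from the nearest zone, on an axis of log10 of the distance plus 1 kb, for the 10 markers, 16 core and naive factors, 16 further marker genes and all 20558 protein-coding genes (box: quartiles). Points are genes, lines are medians and 0 is inside a zone. The markers hold 2 points at 0, the core and naive factors 14 and the further marker genes 10, and 32.4% of all protein-coding genes are at 0.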

How the data were processed

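The authors deposited 1 list of initiation zones for the wild-type OK-seq sample. Per the file headers it gives a breakpoint bin, a minimum on the left, a maximum on the right, both distances in bp, the difference of these and how far the closest other breakpoint is. Per the submitters' processing notes, the build was mm10 and the tools named were Bowtie, BWA 0.7.13, Picard 2.8.2, SAMtools, Trim Galore 0.4.2 and bcl2fastq; no source used here states their roles, the zone caller or its settings. Zones with long arms may be cut at 100 kb, and only chromosomes 1 to 19 hold entries.

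Gene positions and symbols came from an NCBI RefSeq table (GRCm38.p6), and strand and start sites from a RefSeq promoter table. Genes starting before 3 Mb or placed after the first drop in position were left out as scaffold genes. Distances run from the nearer gene end to the zone edge (0 inside) or to the middle of the breakpoint bin, and were tested on planted zones (Python 3.11.15, pandas 2.3.3). Named genes were the 10 markers, genes with an end in their zones, up to 3 genes between a marker and its zone, paralogues by symbol stem, and the nearest and farthest of the lists; immediate neighbours, genes of other kinds and a few list genes were added with their values known. The members and lists were chosen with earlier results of these data known. Alternatives were merged, wide or untruncated zones, limits of 5 and 50 kb, gene midpoints, start sites and bodies extended by 5 kb. There was 1 sample, so no test was made.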

Additional observations from a re-analysis of the deposited data

How the results depend on the processing

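The counts of markers inside a zone and with a breakpoint in the gene body were 2 under each alternative run. The share of all genes with an end inside, 32.4%, was 27.9% with zones whose arms are below the limit. It was 22.5% with midpoints and 20.1% with only the zones of median width or more. The markers' 2 of 10 thus stood below this share by gene ends in the full list. The count stood near the share with midpoints in the full list and level with it among wide zones. With start sites only the 5 genes of the promoter table had a value, and 2 of them lay in a zone. The share of all genes with an entry was 28.0%, so the markers then stood above it. The markers without an entry all lay outside zones. By gene ends, too, 2 of the 5 with an entry were inside, so this turn in direction comes with the genes left out. The count within 20 kb was 2 under each alternative except the limit of 50 kb, which gave 4. The share of all genes within 20 kb, 38.5%, was 29.9% with midpoints and 23.4% with wide zones, and with start sites 33.9%, beside 2 of the 5 markers. The median distance to a zone edge, 69.1 kb, was 72.9 kb with gene midpoints and 87.8 kb with only the zones of median width or more. The median distance to a breakpoint, 113.6 kb, was 118.5 kb with midpoints and 69.7 kb with start sites, where only 5 genes remain. With the wide zones alone, single distances were 1719 kb for Dppa2, 1693 kb for Dppa4, 519.9 kb for Utf1 and 59.3 kb for Lin28a, because their nearest zones, of 58 to 98 kb, were left out by construction, and the other 6 were the same. Merging zones less than 10 kb apart changed none of the 10 distances. No paired analysis was possible because 1 sample had a file. The library's depth is not known, so whether narrow zones or long intervals without a zone depend on it was not tested.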
